A study of Flechtneria rotunda with 10 samples.

Results

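Of the 17148 assembled genes in the deposited tables of a desert green alga, 6 met a rule for genes that are low at late desiccation alone. The rule reads the deposited TMM-scaled signal, an expression level per transcript length whose libraries the authors scaled to each other. It asks for a mean of at least 5 in hydrated drops. The higher late value must be at most 0.5 times the lowest value of the 8 other libraries. The early mean must be at least 0.5 times, and the dry mean 0.5 to 4 times, the hydrated mean, and the highest stage mean must be under 1.5 times the second highest. The genes were thus chosen by their signal in every library, so the dip itself and the return to a high level are descriptions here and support nothing.

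The cells were strain SEV3VF49 of Flechtneria rotunda, with no genetic change or added agent named in the labels, grown for 6 weeks in 150 mL of BBM+WH medium and placed as 40 µL drops on cover glass. Hydrated drops were collected at once, early desiccation at 2.5 h when 25% of the volume was gone, and late desiccation at 7.5 h when 60% was gone. Dry drops had gone flat and stayed 11 h longer in the drying chamber, to about 24 h, and rehydrated drops were taken 1 h after water was given back. Each of the 5 stages has 2 libraries, which the labels do not tie to separate cultures, so p-values measure the spread between libraries, which may be technical.

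A vegetative alga that survives drying passes through rising solute concentration, loss of turgor and a halt of metabolism, and many of its messages change in level as water leaves and returns. A fall in a message can come from less transcription or from faster decay, and in a bulk library fewer cells of a kind and less RNA per cell cannot be told apart. The genes of this alga were assembled from reads, in the form of names that the Trinity assembler gives. Trinity puts similar or joined contigs into 1 cluster and calls parts of it separate genes, so alleles, close paralogs and pieces of 1 message can stand as genes of a cluster. A counting program such as RSEM, which the submitters' processing notes list, divides a read that matches several such sequences by an estimate, and the resulting counts need not be whole. The files pair no identifier with a gene name, so neither the roles of the 6 genes nor marker genes of the alga can be given. Of the 6, 4 are named by identifier, and the others are called the fifth and the sixth gene, which gives no rank.

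The late libraries were the deepest, with 3561533 and 5409197 counts against 1696655 to 2923437 in the 8 others, and they had reads for the most genes, 16734 and 16979 against 10781 to 13787. The rule's conditions, applied in turn, left 6714, 34, 23, 9 and 6 genes. Of the 34, 11 were at 0 in both late libraries and in at least 1 other library and so showed no dip, and none of these is among the 6. Among the genes that met all other conditions, the 2 just inside the limit had a higher late value of 0.375 and 0.372 times the lowest other value, and the first gene outside stood at 0.501 times, with 2.84 against 5.67.

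TRINITY_DN75584_c0_g2 was low at late desiccation and highest in dry drops, and all its counts were whole numbers. Its signal was 76.3 and 48.0 in the hydrated libraries, 64.1 and 70.3 at early desiccation, 10.3 and 14.9 at late desiccation, 172 and 136 in the dry libraries, and 107 and 97.9 after rehydration. Both late values lay far under the other 8, and the dry pair lay above every other library. The late mean of 12.6 ± 3.22 (SD, n = 2) was 0.202 times the hydrated mean of 62.2 ± 20.02, and the dry mean was 2.47 times it. The late values rest on 107 and 229 counts, and the others on 287 or more.

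The fifth gene, the other one with whole counts in every library, had an intermediate level at early desiccation. Its signal was 51.4 and 51.0 in hydrated drops, 25.6 and 27.2 at early desiccation, 7.28 and 8.27 at late desiccation, 53.8 and 33.6 in the dry libraries, and 43.0 and 43.4 after rehydration. The early pair lay between the late pair and all other libraries. At early desiccation the mean was 0.515 times that of hydrated drops, just inside the limit of 0.5 that the rule sets, and at late desiccation 0.152 times. In dry and rehydrated drops it was 0.853 and 0.844 times the hydrated mean.

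TRINITY_DN6519_c0_g1 was the only gene of the 6 with no count in either late library. Its signal was 117 and 120 in hydrated drops, 222 and 145 at early desiccation, 0 and 0 at late desiccation, 352 and 258 in the dry libraries, and 293 and 259 after rehydration. The late zeros stood against 1346 to 2955 expected counts in the 8 other libraries. With a floor of 3 counts over the 2 late libraries, the listed level was at least 2027-fold lower than in hydrated drops.

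TRINITY_DN120087_c0_g2 had the highest hydrated level of the 6. Its signal was 195 and 198 in hydrated drops, 175 and 155 at early desiccation, 0 and 13.8 at late desiccation, 141 and 112 in the dry libraries, and 107 and 44.7 after rehydration. One late library had 0 counts and the other 367, so the late pair itself was split. Its other stage means were 197 in hydrated drops, 165 at early desiccation, 126 in dry drops and 76.0 after rehydration, the last 0.386 times the hydrated one.

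TRINITY_DN38875_c2_g2 varied widely between libraries of a stage. Its signal was 11.1 and 34.2 in hydrated drops, 35.4 and 18.7 at early desiccation, 4.13 and 2.25 at late desiccation, 20.3 and 38.8 in the dry libraries, and 20.4 and 46.3 after rehydration. The late pair was lowest, and the other 4 stages overlapped each other. The sixth gene had the lowest level in hydrated drops, with a signal of 17.9 and 13.5 there, 9.63 and 10.1 at early desiccation, 3.21 and 3.61 at late desiccation, 37.5 and 23.0 in the dry libraries, and 22.6 and 36.2 after rehydration. Its late pair rests on 15.2 and 27.6 expected counts.

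**Figure D1:**
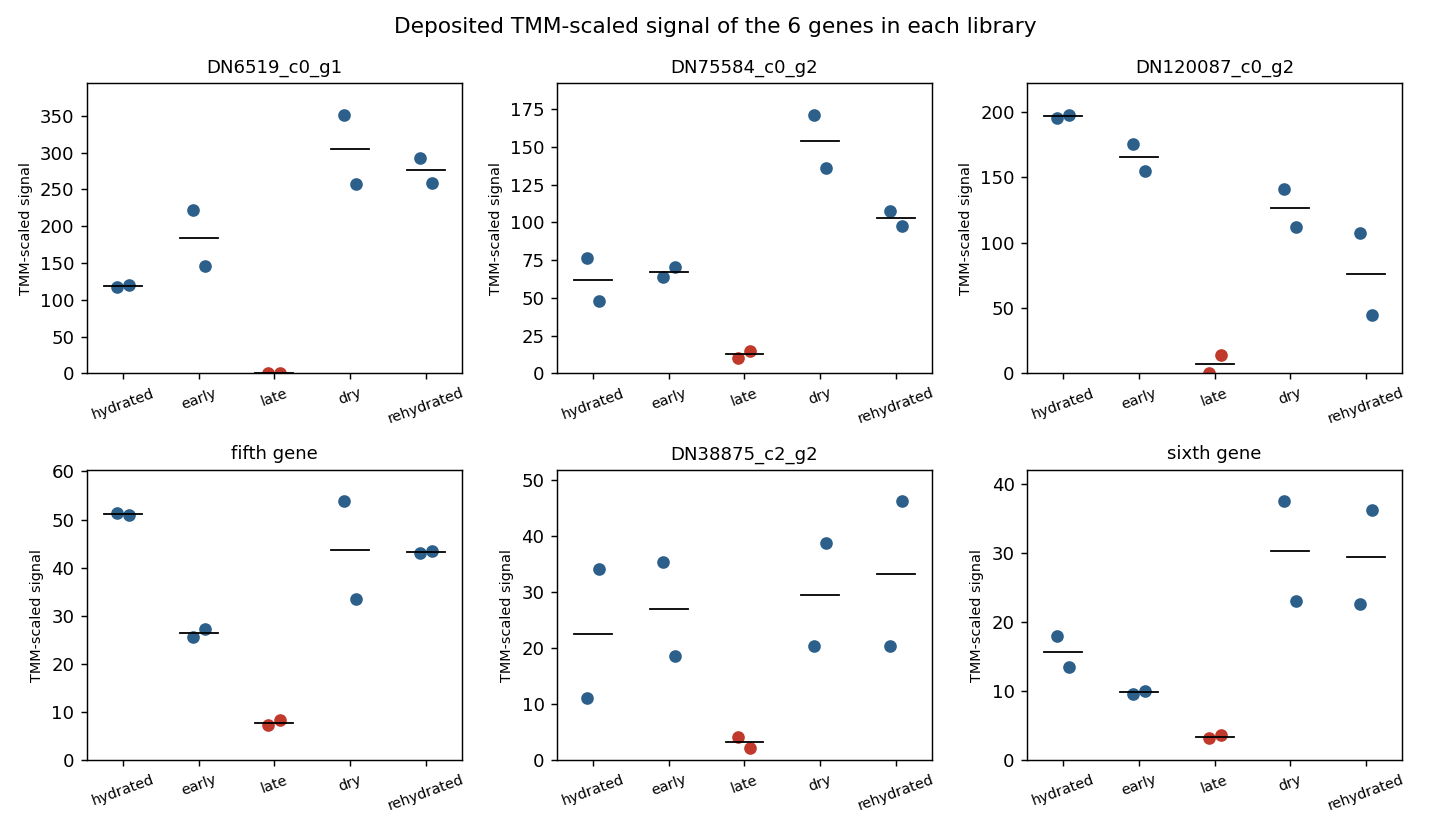
Deposited TMM-scaled signal (vertical axis, from 0) of the 6 genes by stage (horizontal axis), with 1 point per library, red at late desiccation, and a line at the mean of each stage of 2 libraries. Identifiers are shown without their TRINITY prefix. The late points are lowest in every panel, at 0 in both libraries for DN6519_c0_g1 and at 10.3 and 14.9 for DN75584_c0_g2.

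The counts of all 10 libraries were fitted with edgeR's quasi-likelihood model, and p-values were adjusted by Benjamini-Hochberg over the 10467 genes with enough counts, which include all 6. At an adjusted p of 0.05, all 6 were lower at late desiccation than in hydrated drops, where 13.4% of tested genes were lower, and all 6 were lower than at early desiccation, where 5.85% were. All 6 were higher in dry than in late drops and in rehydrated than in late drops, beside 22.4% and 20.5% of tested genes. The rule used these contrasts, so nothing is read from the counts. TRINITY_DN120087_c0_g2 lost its call in rehydrated against late drops with library totals alone (edgeR adjusted p = 0.0524), with the 2 stages fitted alone (edgeR adjusted p = 0.0973), with DESeq2 (adjusted p = 0.146) and with limma at a pseudocount of 0.1 (adjusted p = 0.0763). It also lost its call in late against early drops with DESeq2 (adjusted p = 0.0812) and with that limma fit (adjusted p = 0.0710). With library totals alone the sixth gene lost its call in late against early drops (edgeR adjusted p = 0.0678), and limma at 0.1 lost that of TRINITY_DN38875_c2_g2 in late against hydrated (adjusted p = 0.0532). The median log2 fold change of the 6 was -2.81 in late against hydrated drops and 3.70 in dry against late, beside 0.04 and -0.29 over all tested genes, with TRINITY_DN6519_c0_g1 held at the bound its floor gives or at its fitted value. These are values on the TMM scale. With libraries scaled by their totals alone the medians of the 6 were -2.38 and 2.45, and those over all tested genes 0.48 and -1.53. On that scale of totals the value of TRINITY_DN75584_c0_g2 in dry against late drops was 2.60 and that of the fifth gene 1.47.

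TRINITY_DN75584_c0_g2 had a log2 fold change of -2.34 (SE 0.30, edgeR adjusted p = 0.000134) at late desiccation against hydrated and 3.89 (SE 0.31, edgeR adjusted p = 7.79e-06) in dry against late. The fifth gene had -2.74 (SE 0.28, edgeR adjusted p = 3.39e-05) and 2.76 (SE 0.28, edgeR adjusted p = 2.15e-05). The standard error of TRINITY_DN120087_c0_g2, whose late libraries were split, was 1.13 around a log2 fold change of -4.84 at late desiccation against hydrated (edgeR adjusted p = 0.00786). The sixth gene had -2.21 (SE 0.36) and TRINITY_DN38875_c2_g2 had -2.89 (SE 0.60), the latter with an edgeR adjusted p of 0.00379 that became 0.0633 without hydrated replicate 2.

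Away from the late stage, the rule also used these values and shaped the differences between stages, so nothing is read from the counts that follow either. Its limits on the dry mean are uneven around the hydrated mean. Of the 34 genes that met its first 2 conditions, 10 had a dry mean under 0.5 times the hydrated one and 11 had one over 4 times. At early desiccation against hydrated 1 of the 6 passed the test, the fifth gene, which was lower (log2 change -1.01, SE 0.26, edgeR adjusted p = 0.0287), beside 6.16% of tested genes called lower and 11.2% called in either direction. The call was lost without any 1 of the 4 libraries compared, with edgeR adjusted p from 0.128 to 0.167. It was lost as well with library totals alone, where the fifth gene stood at -0.57 (edgeR adjusted p = 0.260) and TRINITY_DN6519_c0_g1 was called higher instead, at 0.98 (edgeR adjusted p = 0.0423). The median of all tested genes was 0.42 on that scale, against -0.0014 by TMM.

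In dry against hydrated drops 3 of the 6 were higher, beside 22.7% of tested genes. TRINITY_DN6519_c0_g1 had a log2 fold change of 1.61 (SE 0.32, edgeR adjusted p = 0.00177), TRINITY_DN75584_c0_g2 one of 1.55 (SE 0.28, edgeR adjusted p = 0.000870) and the sixth gene one of 1.20 (SE 0.34, edgeR adjusted p = 0.0123). The other 3 had values from -0.39 to 0.63. The call of the sixth gene was lost without dry replicate 1 (edgeR adjusted p = 0.147) or hydrated replicate 2 (edgeR adjusted p = 0.0831). With library totals alone the calls of TRINITY_DN75584_c0_g2 (0.73, edgeR adjusted p = 0.0622) and the sixth gene (0.37, edgeR adjusted p = 0.453) were lost, where the median of all tested genes was -1.07, against -0.28 on the TMM scale. On that scale of totals the fifth gene, at 0.02 by TMM, was lower in dry drops, at -0.82 (edgeR adjusted p = 0.0433).

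After rehydration, 2 of the 6 stood above the hydrated level, beside 22.0% of tested genes. These were TRINITY_DN6519_c0_g1 (log2 change 1.20, SE 0.32, edgeR adjusted p = 0.0101) and the sixth gene (0.90, SE 0.33, edgeR adjusted p = 0.0442). The count was 1 without hydrated replicate 1 or rehydrated replicate 2 and 0 without hydrated replicate 2. None of the 6 differed between dry and rehydrated drops by edgeR at the adjusted threshold, where 5.12% of tested genes did. All 6 log2 fold changes were below 0 on the TMM scale, from -0.98 to -0.10, whereas with library totals alone 4 of them were above 0, from 0.17 to 0.52, and with limma at either pseudocount 2 were. By edgeR 1 of the 6 had an unadjusted p under 0.05. That gene was TRINITY_DN75584_c0_g2, at -0.85 (SE 0.28, edgeR adjusted p = 0.0913), which DESeq2 called (-0.94, DESeq2 adjusted p = 0.0240) and limma did not.

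The counts of 4 of the 6 genes were divided with other genes of the same assembly cluster. These 4 had non-whole counts in at least 1 library, as did 31.9% of the 6714 genes with a hydrated mean of at least 5. TRINITY_DN6519_c0_g1 and TRINITY_DN120087_c0_g2 each share their cluster with 1 other listed gene, the sixth gene with 2 and TRINITY_DN38875_c2_g2 with 5. Summed over the cluster, the counts came to whole numbers, within 0.05, in 10 libraries for 2 of the clusters and in 9 for the other 2, so the divided counts added up within the listed genes there. The other 2 genes, TRINITY_DN75584_c0_g2 and the fifth gene, are the only listed genes of their clusters and had whole counts in 10 of 10 libraries.

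In the cluster of TRINITY_DN6519_c0_g1 all reads at late desiccation were counted for the other gene. Whether that division was right was not tested. The cluster had 7872 and 13224 counts in the late libraries, of which none was given to TRINITY_DN6519_c0_g1. A count of 0 allows a share of up to 0.0381% and 0.0227%, counting error only. Its share of the cluster was 17.2% ± 3.36 in hydrated drops, 40.8% ± 4.24 at early desiccation, 67.2% ± 4.36 in dry drops and 74.8% ± 14.0 after rehydration (SD, n = 2 each). The cluster as a whole stood at 3183 and 2518 CPM in hydrated drops, 2018 and 1495 at early desiccation, 1682 and 1675 at late desiccation, 2499 and 1870 in the dry libraries, and 1866 and 1196 after rehydration, where CPM is the count per unit of scaled library size. The late sums thus lay within the range of the other 8 libraries. Per length, the summed signal was 404 and 424 at late desiccation and 305 to 781 elsewhere.

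The cluster of TRINITY_DN120087_c0_g2 showed the same division. Its gene held 49.2% to 72.8% of the cluster's counts in the 8 other libraries. At late desiccation it held none of 4065 counts, which allows a share of up to 0.0738%, and 4.77% of 7694 (95% Wilson interval 4.32% to 5.27%, counting error only). Summed, the cluster stood at 869 and 975 CPM at late desiccation, between 1381 and 1159 in hydrated drops and 562 and 257 after rehydration. The other gene of the cluster was higher at late than at early desiccation (log2 change 1.49, SE 0.39, edgeR adjusted p = 0.0278) and lower in dry than in late drops (-1.64, SE 0.39, edgeR adjusted p = 0.00583), opposite to TRINITY_DN120087_c0_g2. Since the 2 genes divide a common pool of reads, these are not independent measurements.

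TRINITY_DN38875_c2_g2 held 2.83% and 1.63% of its cluster at late desiccation (95% Wilson intervals 2.06% to 3.88% and 1.17% to 2.29%), and 7.22% to 23.9% in the 8 other libraries. The cluster sum was 268 ± 16.6 CPM at late desiccation and 268 ± 11.0 CPM in hydrated drops, and rose to 615 ± 86.6 CPM after rehydration (SD, n = 2 each). The late libraries stood at 279 and 256 CPM, the latter just under the 260 to 676 CPM of the 8 other libraries. The sixth gene held 10.3% and 11.6% of its cluster at late desiccation (95% Wilson intervals 6.33% to 16.3% and 8.13% to 16.2%) and 26.0% to 52.0% elsewhere. Its cluster sum was lowest at late desiccation, at 31.2 and 30.7 CPM, beside 31.3 and 36.8 CPM at early desiccation, and highest in dry drops, at 91.2 and 99.0 CPM.

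**Figure D2:**
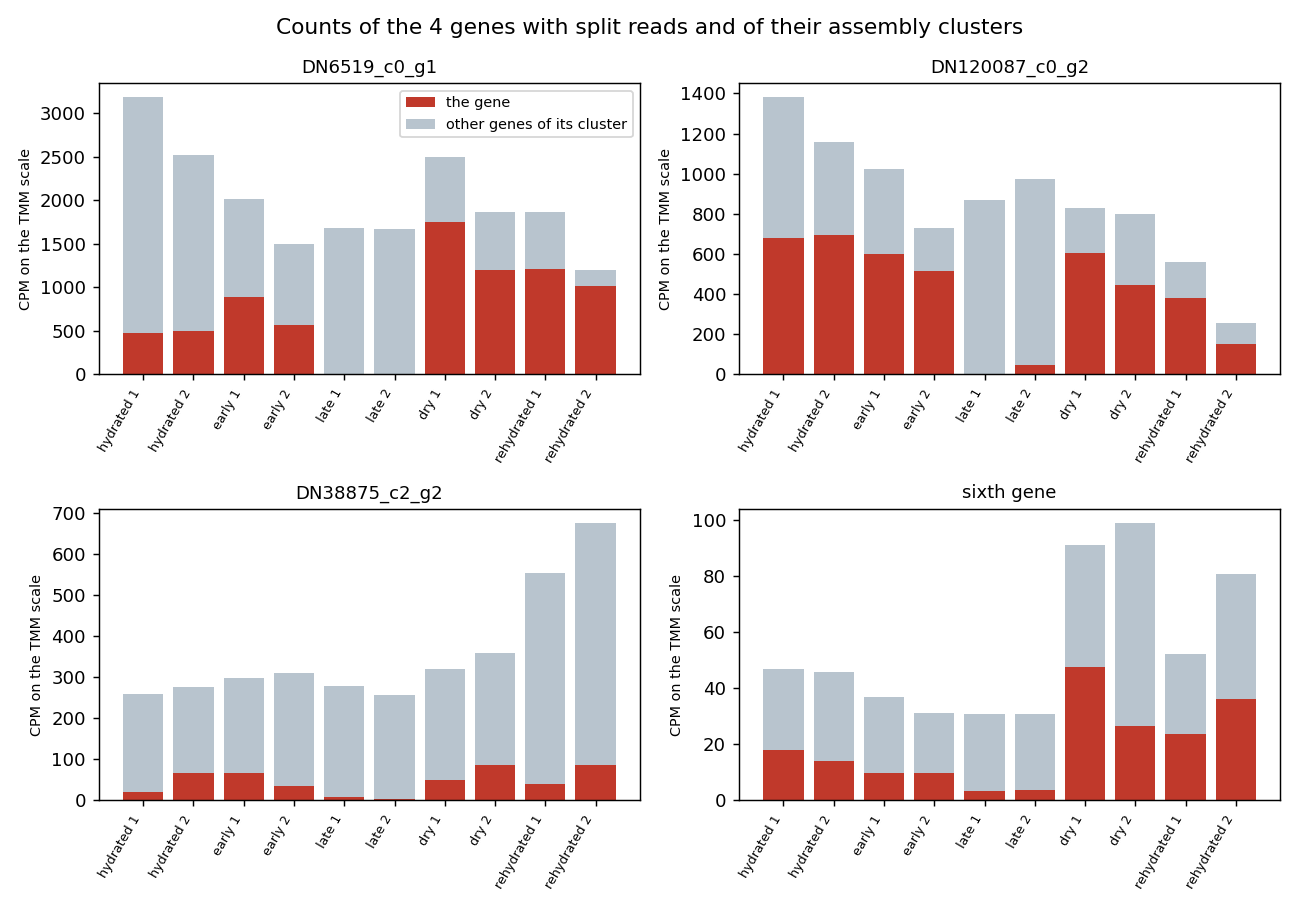
CPM on the TMM scale (vertical axes, from 0) in each of the 10 libraries (horizontal axes) for the 4 genes with divided counts, in red, stacked under the summed other genes of their assembly clusters, in grey. Whole bars are cluster sums. The red part shrinks or is gone in both late libraries, while the late cluster sums of DN6519_c0_g1, 1682 and 1675, lie within the range of the other libraries.

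When the counts were summed per assembly cluster before the fit, 9358 clusters were tested and 2 of the 6 were lower at late desiccation than in hydrated drops, those of TRINITY_DN75584_c0_g2 and the fifth gene, beside 16.3% of tested clusters. The same 2 were lower than at early desiccation, beside 8.67% of clusters. The 4 clusters with divided counts had log2 fold changes of -0.78 to -0.02 in late against hydrated (edgeR adjusted p from 0.0793 to 0.969) and of -0.20 to 0.06 in late against early desiccation (edgeR adjusted p from 0.657 to 0.930). Their single genes had values of -2.21 or below and -1.50 or below. The 2 genes with whole counts are the only listed genes of their clusters, and their values were -2.35 and -2.75 against hydrated. Their cluster calls thus repeat the gene tests, on values that the rule used, and nothing is read from them.

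The return in dry drops also differed by unit of counting. Against late desiccation 3 of the 6 clusters were higher in dry drops, beside 24.1% of tested clusters. Those were the 2 with whole counts and the cluster of the sixth gene (log2 change 1.68, SE 0.26, edgeR adjusted p = 2.08e-05). The cluster of TRINITY_DN6519_c0_g1 had 0.45 (SE 0.33, edgeR adjusted p = 0.275) and that of TRINITY_DN120087_c0_g2 had -0.12 (SE 0.34, edgeR adjusted p = 0.789). In rehydrated against late drops 4 clusters were higher, beside 23.6% of tested clusters, and the cluster of TRINITY_DN120087_c0_g2 was lower, beside 18.6% of clusters (-1.12, SE 0.34, edgeR adjusted p = 0.0124).

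**Figure D3:**
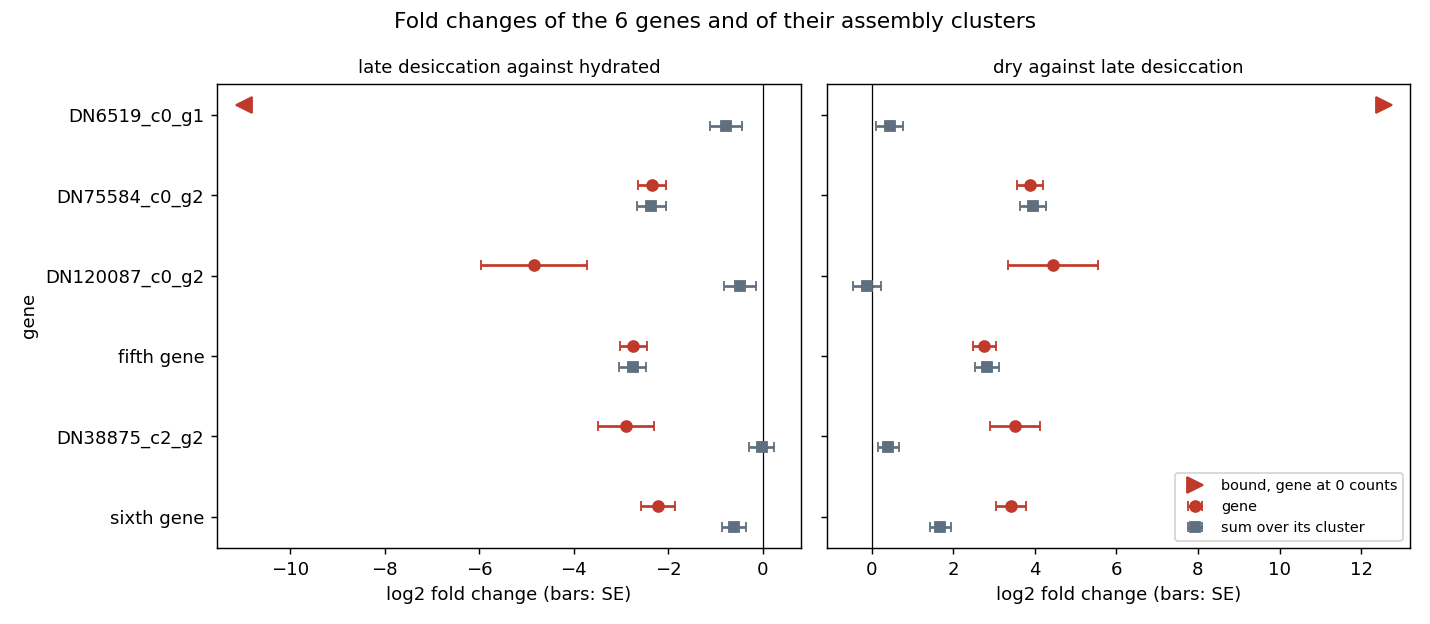
Log2 fold changes with standard errors (horizontal axes) of the 6 genes, in red, and of the sums over their assembly clusters, in grey, for late against hydrated drops (left) and dry against late drops (right). The triangle marks the bound for DN6519_c0_g1, which had 0 late counts. DN75584_c0_g2 and the fifth gene are the only listed genes of their clusters, so gene and sum rest on the same counts. The other 4 clusters lie at -0.78 to -0.02 in late against hydrated.

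After rehydration 2 of the 6 clusters stood above the hydrated level, beside 24.0% of tested clusters, and 2 below it, beside 22.3%. The cluster of TRINITY_DN120087_c0_g2 was lower (log2 change -1.59, SE 0.35, edgeR adjusted p = 0.000718), in the direction of its gene, which had -1.37 and did not pass (edgeR adjusted p = 0.282). That of TRINITY_DN75584_c0_g2 was higher (0.74, SE 0.28, edgeR adjusted p = 0.0370), where the gene had 0.70 (edgeR adjusted p = 0.0638). The cluster of TRINITY_DN6519_c0_g1 was lower (-0.86, SE 0.33, edgeR adjusted p = 0.0407), where the gene alone was higher. Its other gene was lower in dry (-1.74, SE 0.46, edgeR adjusted p = 0.00881) and in rehydrated drops (-2.50, SE 0.47, edgeR adjusted p = 0.00114). The cluster of TRINITY_DN38875_c2_g2 was higher after rehydration than in hydrated (1.24, SE 0.27, edgeR adjusted p = 0.000674) and in dry drops (0.85, SE 0.27, edgeR adjusted p = 0.0484), the latter beside 5.29% of clusters called higher, and the gene alone passed neither test.

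The 17 further genes that met the first 2 conditions and were above 0 in all 8 other libraries gave a mixed picture. Here the signal, not the counts, was summed per cluster, and being per length this sum depends on how reads were divided. Of these, 9 had whole counts throughout and 8 did not. Among the 8, the dip to 0.5 of the lowest other library stood in the summed signal for 4 and was lost for 4. For 1 of the 4 where the dip stood, no other gene of the cluster is listed, so the sum is the gene itself. For the 4 where the dip was lost, the higher late sum was still only 0.517 to 0.685 times the lowest other sum. In the 4 of the 6 genes with divided counts it was 0.859 to 5.255 times. Together with the 6, 12 of 23 genes with the dip (52.2%) had non-whole counts, beside 31.9% of the genes with a hydrated mean of at least 5. The latter did not have to be above 0 in all 8 other libraries, so the sets are unlike. In length the 6 genes were mixed as well. By the ratio of the 2 tables, the sixth gene was shorter than most, with 25.2% of tested genes shorter than it, and the other 5 were longer than 67.1% to 96.4% of them.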

How the data were processed

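RNA from 10 libraries was measured in 2 deposited tables over 17148 assembled genes. The first holds expected counts, deposited without scaling. The second holds a signal that the authors scaled by TMM, as the deposited table's name says, and its sums resemble TPM over a library factor. Those sums were lowest at late desiccation, at 680612 and 644523, and highest in dry drops, at 1935895 and 1695207. The other libraries had 695290 to 1389108. Tools named without roles in the submitters' processing notes are Bowtie2 2.2, CASAVA 1.4, DESeq2, RSEM 1.2.28 and Trimmomatic 0.35. The names of the deposited tables call their rows plant DE genes. By what criteria these were listed is not given in the sources used here, nor is any genome build, so shares of tested genes refer to this list only.

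The members, lists and alternatives were chosen with earlier results of these data known. Identifiers were given to the 2 members with the largest ratio of lowest other value to higher late value, with 1 added to each. They were also given to the 2 remaining members with the largest rise from late to dry (at least 10 CPM in dry). Expected counts were rounded, filtered (filterByExpr, minimum count 10, total 15), scaled by TMM and fitted with edgeR 4.0.16 (R 4.3.3) to 5 stages. A standard error is the size of the log2 change divided by the square root of F. All tests are two-sided. Clusters are identifiers up to the c number. The fitting step was tested on simulated data with set changes at late desiccation. Those data held no reads divided among genes, so that division was not tested there. Alternatives used DESeq2 1.42.0 and limma 3.58.1. Depth was 1696655 to 5409197 counts per library, and intervals cover counting error only.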

Additional observations from a re-analysis of the deposited data

How the results depend on the processing

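Counts were also summed per assembly cluster, a choice made after the data were seen. Of the 6, 2 were then called in late against hydrated, 2 in late against early and 3 in dry against late. In rehydrated against hydrated 4 were called (2 higher and 2 lower, where both gene calls were higher), and in rehydrated against dry 1. With the per-length signal summed per cluster in place of the counts, 2 clusters met the rule. They were those of the 2 genes with whole counts, where the sum over listed genes is the gene itself. Summed counts reversed TRINITY_DN120087_c0_g2 in late against early (0.063), dry against late (-0.12) and rehydrated against late (-1.12). They also reversed TRINITY_DN6519_c0_g1 in rehydrated against late (-0.078), dry against hydrated (-0.33) and rehydrated against hydrated (-0.86). The same held for TRINITY_DN38875_c2_g2 in rehydrated against dry (0.85). Library totals alone reversed the fifth gene in dry against hydrated (-0.82). The single early call became 0 with no filter and with limma at pseudocounts of 1 and 0.1, and with library totals alone it was TRINITY_DN6519_c0_g1 in place of the fifth gene. The 2 calls in rehydrated against hydrated became 1 with median-of-ratios factors, library totals alone, DESeq2, limma at either pseudocount and with the length trend removed. DESeq2 called 1 gene in rehydrated against dry. A dip limit of 0.67 in place of 0.5 gave 32 genes, and the rule on CPM of the counts gave 4 with TMM and 6 with totals, of which 4 were among the 6 each time. Without 1 library at a time, 6 to 18 genes met the rule, with 17 and 18 when late replicate 1 or 2 was left out. The calls ran from 5 to 6 in late against hydrated, 4 to 5 in late against early, 0 to 0 in early against hydrated and 0 to 2 in rehydrated against hydrated. Replicate numbers are not tied to a shared culture in the labels. The deviations of same-numbered libraries correlated at 0.000422 to 0.141 over 10 pairs of stages, all above 0. These values do not decide whether the libraries are paired. For want of a stated tie, the main fit did not pair them. With the replicate block 3 genes were called in rehydrated against hydrated in place of 2, and the other counts stayed at 6, 6, 6, 6, 1, 3 and 0. The causes of these changes were not tested. A cluster sum of counts does not depend on how reads were divided within it, whereas a sum of signal does, being per length. Whether that division was right was not tested either. The late values of the sixth gene rest on 15.2 and 27.6 counts, and TRINITY_DN6519_c0_g1 in both late libraries and TRINITY_DN120087_c0_g2 in 1 had none.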
